A study of Homo sapiens with 8 samples.

Results

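The DNA downstream of the adult β-globin gene *HBB* runs from just past the 3′ end of the gene to beyond 3'HS1, a DNase hypersensitive site at the edge of the β-globin locus. Its contacts with the locus were described from pairs of ligated DNA ends. A pair was counted when the midpoint of 1 end lay in the 24.2-kb interval chr11:5222301-5246500 (hg19), which begins 1.80 kb and finishes 26.0 kb downstream of the *HBB* transcription start, and the midpoint of the other end lay in the rest of the locus, chr11:5246501-5323175. There were 179 such pairs among 2966 distinct pairs in WT and 118 among 2310 in BCL11A KO, 297 of 5276 in all.

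The pairs came from CAPTURE-3C-seq in HUDEP-2 cells, an immortalized human erythroid progenitor line that expresses adult globins. WT cells and cells with a knockout of BCL11A, a repressor of the fetal γ-globin genes *HBG1*/*2*, both carried a biotinylated, catalytically dead Cas9 and guide RNAs to *HBB*, *HBG1*/*2*, the region upstream of *HBD* (a bait that the study calls *HBD*-3.5kb) and the locus control region (LCR). For both genotypes the labels describe an expansion culture with SCF, EPO, dexamethasone and doxycycline and name no treatment, whereas the methods of the study have the cells collected for capture after they had differentiated for 5 days, and whether the KO line is 1 clone is not given in the sources used here. The authors merged 3 biological replicates per genotype into 1 list, so no value below has a replicate error and each test compares 2 libraries and covers counting error only.

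The LCR is a cluster of hypersensitive sites, HS1 to HS5, that acts as the distal enhancer of the globin genes and comes close to the gene in use by looping of the chromatin. 3'HS1 lies at the opposite edge of the locus and, like HS5 on the LCR side, is known as a site bound by CTCF, a protein that holds the bases of chromatin loops. Between 3'HS1 and *HBB* no globin gene is annotated.

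Some of the sequences joined in these contacts are printed below as the plus strand of hg19, 5′ to 3′, with GATC in capitals, since ends inside the interval lay a median of 53 bp from this tetramer in WT and 46.5 bp in KO. The first is the part of 3'HS1 around the GATC site that was nearest to more ends than any other site of the interval (chr11:5226178-5226477). It also has in capitals its match to CCANNAGGG, letters from the core of the CTCF motif. The second (chr11:5229131-5229172) and the third (chr11:5245929-5245970) are the ends inside the interval that the most WT and the most KO pairs shared, and the fourth (chr11:5257743-5257784, upstream of *HBD*) and the fifth (chr11:5305798-5305839, HS3) are the ends of the partner regions that the interval reached most often.

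3'HS1 stretch: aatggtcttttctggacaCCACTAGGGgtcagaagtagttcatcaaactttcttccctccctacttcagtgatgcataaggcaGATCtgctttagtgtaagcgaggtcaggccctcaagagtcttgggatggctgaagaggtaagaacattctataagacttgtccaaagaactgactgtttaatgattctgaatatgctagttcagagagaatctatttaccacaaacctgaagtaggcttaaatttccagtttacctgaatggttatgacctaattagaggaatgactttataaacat
interval end most shared in WT: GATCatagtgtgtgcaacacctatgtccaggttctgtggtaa
interval end most shared in KO: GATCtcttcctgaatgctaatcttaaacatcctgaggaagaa
HBD upstream end: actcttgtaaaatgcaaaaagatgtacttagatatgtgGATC
HS3 end: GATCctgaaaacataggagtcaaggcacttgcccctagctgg

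The 2-kb window of 3'HS1 (chr11:5225401-5227401) held 4 GATC sites, 3 copies of GATAA, the GATA core, 1 of TGACCA, the BCL11A motif, and 1 match to CCANNAGGG, counting both strands. Of 198 windows of the same length across the locus and its flanks, 97.5% held GATC, 100% held GATAA, 64.1% held TGACCA and 14.6% held CCANNAGGG. The longer CTCF core in which CCANNAGNN runs on into GGC was in 2.02% of the windows and not in this one. The match to CCANNAGGG lay 65 bp from the GATC site, and the interval held 4 such matches in all, the other 3 in the stretch nearer *HBB*. CCANNAGGG was added to the search after the sequence had been read, and a match of letters is not a binding site.

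How the pairs are listed bears on every test. Each member had another member of the same library with the same score and both ends within 2 kb of its own. The nearest pair with that score, member or not, lay at a median distance of 0.227 kb in WT and 0.260 kb in KO. Other pairs with ends at least 10 kb apart were alike, with medians of 0.218 kb and 0.2465 kb. Members with the same score and both ends within 2 kb were linked, and formed 25 groups in WT and 26 in KO. A group held 2 to 23 pairs in WT, with a median of 5, and 2 to 14 pairs in KO, with a median of 3. The pairs of a group are not independent, so the p-values below, which count each pair as 1 observation, are too small. The grouping was made after the data had been seen.

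Of the pairs of the library, those with an end downstream of *HBB* made up 6.04% in WT (95% Wilson interval 5.23 to 6.95%) and 5.11% in BCL11A KO (4.28 to 6.08%). The difference was within counting error (Fisher's exact test, p = 0.149), but among pairs with the highest score alone, 150, the shares were 5.94% and 4.07% (Fisher's exact test, p = 0.00407). KO had 0.659 times as many such pairs as WT, beside 0.779 times as many pairs of all kinds. Pairs that left the locus on the 3'HS1 side fell from 299 to 193, a ratio of 0.645, and the other pairs within the locus with ends at least 10 kb apart fell from 724 to 473, a ratio of 0.653. Neither ratio could be told apart from that of the interval (Fisher's exact tests, adjusted p = 0.947 for both). Pairs that left the locus on the HS5 side went from 329 to 302, a ratio of 0.918. Against these the pairs of the interval were fewer in KO by an unadjusted p of 0.0236 that did not pass adjustment over the 3 comparisons (Fisher's exact test, adjusted p = 0.0709). The ends of a pair lay 5.58 to 86.3 kb apart in WT (median 63.0 kb) and 3.66 to 86.2 kb apart in KO (median 60.5 kb).

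**Figure D1:**
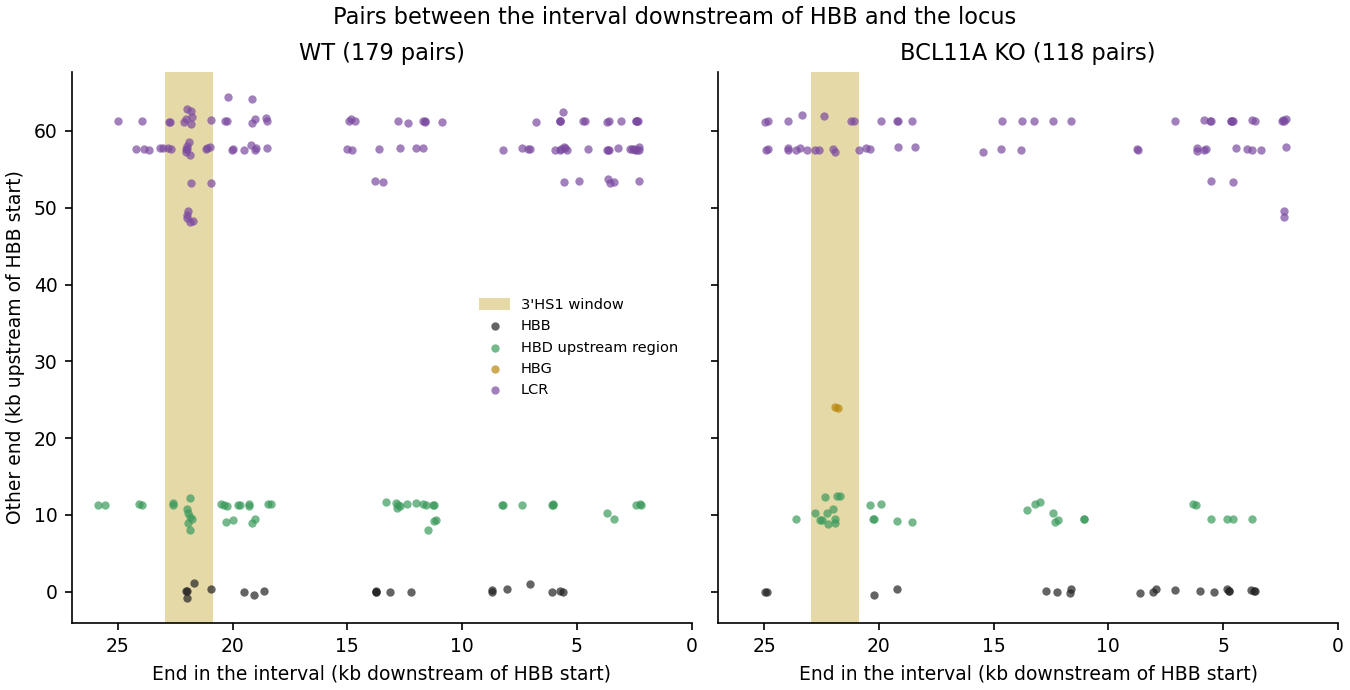
Each point is 1 distinct pair, with its end downstream of HBB on the horizontal axis and its other end on the vertical axis, both in kb from the HBB transcription start, for WT (left, 179 pairs) and BCL11A KO (right, 118 pairs). Colours give the partner region and the band is the 2-kb 3'HS1 window, where WT had 27 pairs with the LCR and KO had 7.

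Every listed pair has an end in a captured region, so the interval could be seen only with *HBB*, the *HBD* upstream region, *HBG* and the LCR. That no pair joined it to *HBE1*, the embryonic ε-globin gene, or to the DNA between the captured regions follows from this and is not a measurement. The LCR (chr11:5295220-5313620) took 108 of the 179 pairs in WT (60.3%) and 64 of the 118 in KO (54.2%). The *HBD* upstream region (chr11:5255713-5261213) took 51 (28.5%) and 32 (27.1%). This window reaches farther than 3.5 kb from the *HBD* start and so is wider than the name *HBD*-3.5kb of the bait. *HBB* itself (chr11:5246501-5250201) took 20 (11.2%) and 20 (16.9%), and *HBG* (chr11:5270187-5281587) took 0 of its 186 pairs, which allows up to 1.61% at a floor of 3 pairs, and 2 of its 193. Per kb of captured DNA, the interval had 9.27 pairs with the *HBD* upstream region, 5.87 with the LCR and 5.40 with *HBB* in WT, and 5.82, 3.48 and 5.40 in KO. The efficiency of capture may differ between the regions and was not measured here.

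Within the *HBD* upstream region the ends lay in different places in the libraries. Of its 51 WT pairs with the interval, 15 had their end within 3.5 kb of the *HBD* start (29.4%) and 36 had it beyond, at chr11:5259214-5261213 (70.6%). In KO 23 of the 32 pairs had it within 3.5 kb (71.9%) and 9 beyond (28.1%). The other pairs that left this region were placed much the same way, with 252 of 900 within 3.5 kb in WT (28%) and 146 of 236 in KO (61.9%), so the shift was not tested as a trait of the interval. It was noticed after the data had been seen.

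The LCR sent a smaller share of its pairs downstream of *HBB* in KO. Of the pairs with an end in the LCR, 108 of 1194 reached the interval in WT (9.05%, interval 7.55 to 10.8%) and 64 of 1223 in KO (5.23%, 4.12 to 6.63%). The share in KO was 0.579 times that in WT, while the LCR's own number of pairs was close to equal in the libraries (Fisher's exact test, adjusted p = 0.00238 over 9 regions). Counted as groups, the LCR had 12 in WT and 11 in KO, with a median of 6 and 3 pairs. With distinct pairs of 1-kb bins as the unit the shares were 9.94% and 7.32%, and this call was lost (Fisher's exact test, adjusted p = 0.438).

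The shares of *HBB* and the *HBD* upstream region were not lower in KO when distinct pairs were counted. Of the pairs with an end in *HBB*, 20 of 198 lay downstream in WT (10.1%, interval 6.63 to 15.1%) and 20 of 125 in KO (16%, 10.6 to 23.4%), a difference within counting error (Fisher's exact test, adjusted p = 0.220). Of the pairs with an end in the *HBD* upstream region, 51 of 1786 (2.86%) and 32 of 1013 (3.16%) reached the interval (Fisher's exact test, adjusted p = 0.725). Many pairs of the *HBD* upstream region have both ends inside it, 835 in WT and 745 in KO. Among those that left it, 51 of 951 in WT (5.36%) and 32 of 268 in KO (11.9%) went downstream of *HBB* (Fisher's exact test, adjusted p = 0.00436), so the result for this region depends on the denominator. The change of the LCR differed from that of *HBB* (Zelen's exact test of equal odds ratios, p = 0.00493, adjusted p = 0.0165 over 6 tests) and from that of the *HBD* upstream region (p = 0.0182, adjusted p = 0.0274). Neither difference held throughout. With 1-kb bins as the unit *HBB* and the LCR were both lower in KO, with differences of -2.50 and -2.62 percentage points (Zelen's exact p = 0.816), and with GATC sites the test gave p = 0.0571. The difference from the *HBD* upstream region was lost with scores of 150 alone (exact p = 0.363) and without the most used end of that region (exact p = 0.0699).

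Nearly all pairs of the LCR with the interval ended at its hypersensitive sites, as did most of its other pairs. Windows of 2 kb on HS1 to HS5 make up 54.4% of the length of the LCR and held 104 of its 108 pairs in WT (96.3%) and 62 of 64 in KO (96.9%). HS3 and HS4, which stand next to each other in the LCR, held 87 (80.6%) and 58 (90.6%). Of the LCR ends of the other pairs that left the LCR, 92.1% in WT and 97.6% in KO lay in the 5 windows and 67.0% and 82.2% in those of HS3 and HS4, so this placement was not tested as a trait of the interval. HS3 (chr11:5304820-5306820) had 50 of its 557 pairs with the interval in WT (8.98%) and 30 of 662 in KO (4.53%), and its share alone among the 5 sites passed the test on distinct pairs (Fisher's exact test, adjusted p = 0.0106). The call was lost with 1-kb bins (exact test, adjusted p = 0.642) and with GATC sites (exact test, adjusted p = 0.106) as the unit, and with scores of 150 alone that of HS2 passed too (exact test, adjusted p = 0.0140). HS4 (chr11:5308120-5310120) had 37 of 345 (10.7%) and 28 of 418 (6.70%), which did not pass (Fisher's exact test, adjusted p = 0.115).

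The remaining sites had few pairs, and where these lay can be given in full. HS2 (chr11:5301020-5303020), the classical enhancer element of the LCR, had 10 of its 200 pairs downstream of *HBB* in WT and 2 of 184 in KO (Fisher's exact test, p = 0.0376, adjusted p = 0.113). Of the 10 WT pairs of HS2, 2 lay in 3'HS1, 2 in the adjoining stretch at 13.5 and 13.8 kb, and 6 between 2.28 and 5.54 kb downstream of the *HBB* start. The 2 KO pairs of HS2 lay at 4.57 and 5.51 kb. HS1 (chr11:5296220-5298220) had 5 of 133 pairs in WT and 2 of 53 in KO, and these were in different places: all 5 WT pairs lay in 3'HS1, at 21.7 to 22.0 kb, and both KO pairs at 2.35 kb, on the same end. HS5 (chr11:5311120-5313120), the CTCF site that faces 3'HS1 across the locus, had 2 of 48 pairs in WT, at 19.1 and 20.2 kb, and 0 of 36 in KO. By midpoints, 0 pairs joined HS5 to the 3'HS1 window in either library, but this rests on the edge of the HS5 window. In WT 1 pair of 3'HS1 had an end that overlapped it, and 2 had HS5 as their nearest site, beside 0 in KO. A count of 0 of 36 allows a share of up to 8.33% at a floor of 3 pairs, and its Wilson interval reaches 9.64%.

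**Figure D2:**
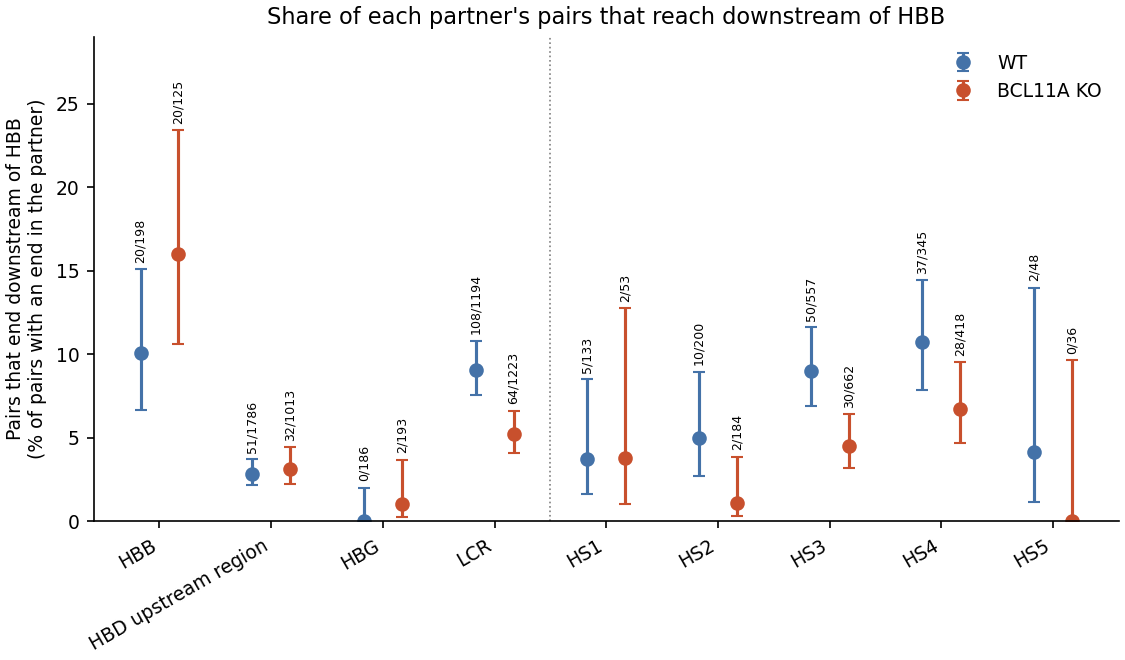
Vertical axis, the percentage of the pairs with an end in a partner region whose other end lay downstream of HBB, for the 4 captured regions (left of the dotted line) and the 5 sites of the LCR, in WT (blue) and BCL11A KO (red). Points are shares, bars 95% Wilson intervals and labels the counts; the LCR share is 9.05% in WT and 5.23% in KO.

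In both libraries pairs were denser at 3'HS1 than in the rest of the interval as a whole. In WT 41 of 179 pairs (22.9%) ended in its 2-kb window, which is 20.5 pairs per kb (exact Poisson interval 14.7 to 27.8) beside 6.22 per kb in the rest of the interval, 3.30 times as many (exact binomial test in proportion to length, p = 1.89e-09). In KO 20 of 118 pairs (16.9%) did, which is 10.0 per kb (6.11 to 15.4) beside 4.42 per kb, 2.26 times as many (exact binomial test, p = 0.00207). In KO the 2.2-kb bin that reaches to 6.20 kb from the *HBB* start was as dense, with 10.5 pairs per kb. The 3'HS1 share of the pairs did not differ between the libraries beyond counting error (Fisher's exact test, adjusted p = 0.394 over 4 segments).

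Beyond 3'HS1 (chr11:5222301-5225400) WT had 11 pairs, 3.55 per kb and 0.446 times the density of the rest of the interval, which includes 3'HS1 (exact binomial test, p = 0.00503). KO had 14 pairs there, 4.52 per kb and 0.916 times the rest (exact binomial test, p = 0.890). As shares of the pairs, 6.15% and 11.9% differed by less than counting error (Fisher's exact test, adjusted p = 0.364). The stretch nearer 3'HS1 (chr11:5227402-5236951) held 62 and 35 pairs. In WT this was 6.49 per kb and 0.813 times the rest (exact binomial test, p = 0.194), and in KO 3.67 per kb and 0.647 times the rest (exact binomial test, p = 0.0303, not adjusted over the segments). The stretch nearer *HBB* (chr11:5236952-5246500) held 65 and 49. What could be seen differed along the interval, since every 42-bp sequence of the 3'HS1 window occurs once in the genome, as do 97.6% of those in the stretch nearer 3'HS1 but 53.1% of those in the stretch nearer *HBB*. Of the 60 GATC sites of the interval, 4 lay whole in the 3'HS1 window, and 1 more crossed its edge.

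On distinct pairs, the partner regions differed in how the share of their pairs that ended in 3'HS1 changed between WT and KO, a result that several alternatives did not keep. Of the LCR pairs of the interval, 27 of 108 ended in 3'HS1 in WT (25%, interval 17.8 to 33.9%) and 7 of 64 in KO (10.9%, 5.40 to 20.9%). Of the *HBB* pairs, 5 of 20 (25%) and 0 of 20 did, and the latter allows a share of up to 15% at the floor of 3 pairs, with a Wilson interval that reaches 16.1%. Of the pairs of the *HBD* upstream region, 9 of 51 (17.6%) and 11 of 32 (34.4%) did, but by place the values ran opposite ways. Among its ends beyond 3.5 kb, 3 of 36 (8.33%) did in WT and 3 of 9 (33.3%) in KO. Within 3.5 kb of the *HBD* start, 6 of 15 (40%) and 8 of 23 (34.8%) did, which turns the direction (Fisher's exact test, adjusted p = 1). Both pairs of *HBG*, which were seen in KO, ended in 3'HS1, at 21.8 and 21.9 kb. Taken alone, none of these changes passed adjustment (Fisher's exact tests, adjusted p = 0.0707 for the LCR and for *HBB* and 0.114 for the *HBD* upstream region). The change of the *HBD* upstream region differed from that of the LCR (Zelen's exact test, p = 0.00826, adjusted p = 0.0165) and from that of *HBB* (p = 0.00668, adjusted p = 0.0165), but with distinct pairs of 1-kb bins or of GATC sites as the unit these 4 p-values were 0.0659 to 0.109, and with the region held to 3.5 kb they were 0.431 and 0.208.

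**Figure D3:**
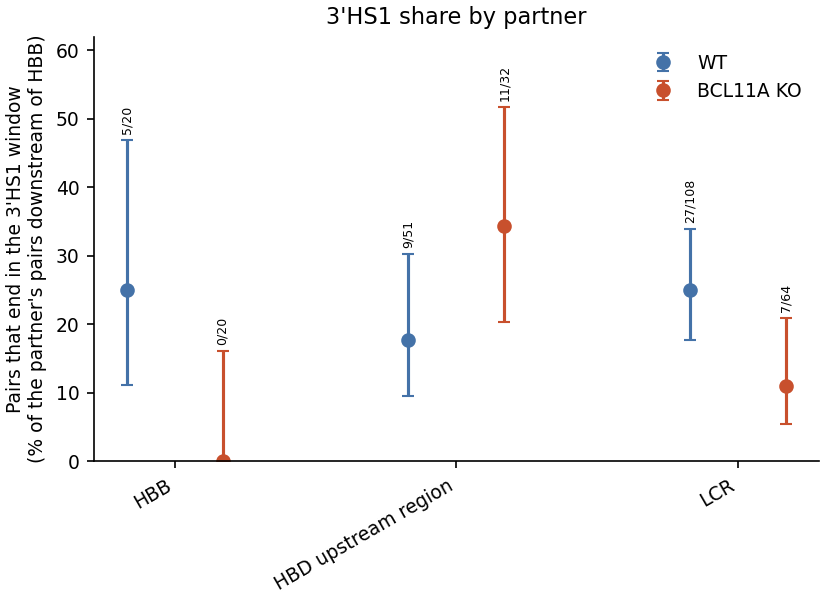
Vertical axis, the percentage of the pairs of a partner region downstream of HBB that ended in the 2-kb 3'HS1 window, in WT (blue) and BCL11A KO (red), for HBB, the HBD upstream region and the LCR. Points are shares, bars 95% Wilson intervals and labels the counts; HBB and the LCR are lower in KO and the HBD upstream region higher, except that its ends within 3.5 kb of the HBD start are at 40% in WT and 34.8% in KO.

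Within the LCR, the 27 WT pairs of 3'HS1 came from HS3 (10), HS4 (7), HS1 (5), HS2 (2) and the DNA between these windows (3). In KO they came from HS3 (4), HS4 (2) and the DNA between (1). Outside 3'HS1, HS3 had 40 pairs with the interval in WT and 26 in KO, and HS4 had 30 and 26. The pairs of *HBB*, which fall in 4 groups in WT and 6 in KO, had a median distance between the ends of 13.7 kb in WT and 8.10 kb in KO, a difference that was not tested, and the farthest pair spanned 22.8 kb in WT and 24.9 kb in KO. In WT they reached from 5.59 to 22.0 kb downstream, and in KO from 3.60 to 24.98 kb, with 12 of 20 in the stretch nearer *HBB* beside 7 of 20.

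Much of the signal of 3'HS1 came from 1 GATC site, chr11:5226261-5226264, 22.0 kb downstream of the *HBB* start. It was the nearest GATC to 29 pairs in WT and 13 in KO, out of 41 and 20 in the window. By partner, 18 of the WT pairs and 3 of the KO pairs at this site came from the LCR, 4 and 0 from *HBB*, 7 and 8 from the *HBD* upstream region, and 0 and 2 from *HBG*. At this single site, LCR pairs were the most numerous in WT and pairs of the *HBD* upstream region in KO. The site lies 10 bp from the start of the long non-coding RNA gene ENSG00000224091 (chr11:5226271-5228771, plus strand), and the printed stretch held 22 WT and 7 KO ends.

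Other GATC sites gave fewer pairs. The site at 2.37 kb, close to the 3′ end of *HBB* and inside the annotated transcript ENSG00000285498 (chr11:5245539-5246691, minus strand), had 15 pairs in WT and 7 in KO, of which 12 and 7 came from the LCR. The site at 4.69 kb had 2 and 7, of which 2 and 6 came from the LCR, and the site at 24.9 kb, beyond 3'HS1, had 1 and 6. In all, 44 of the 60 sites had a pair in WT and 39 in KO, 33 of them in both. The sites named were chosen as those with the most pairs, and sites outside the interval were not counted this way, so these counts are a description.

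By bins of 2.2 kb, no part of the interval changed past the test. Of the 11 bins 10 had enough pairs, and 0 were called at an adjusted p under 0.05 in either direction (Fisher's exact test, with 0 at an unadjusted p under 0.05), beside 6.48% of 108 bins of the whole table called lower in KO and 3.70% called higher. None reached a share ratio of 2 either, beside 16.7% of bins lower and 10.2% higher. The share was lower in KO in 7 of the 10, but the same count was not made over all bins, so this is a description. The bin with the most pairs, at 21.6 to 23.8 kb, covers most of 3'HS1 and held 38 pairs in WT (1.28% of the library) and 23 in KO (0.996%). In it the LCR pairs went from 25 to 9 and those of the *HBD* upstream region from 9 to 12. In KO the second bin from *HBB*, which reaches to 6.20 kb, had as many, 23, beside 21 in WT. The bins at 15 to 17.2 kb and at 8.40 to 10.6 kb were almost empty, with 1 and 1 and with 2 and 3 pairs. The former holds 1 GATC site, and in the latter 16.4% of the 42-bp sequences occur once in the genome.

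**Figure D4:**
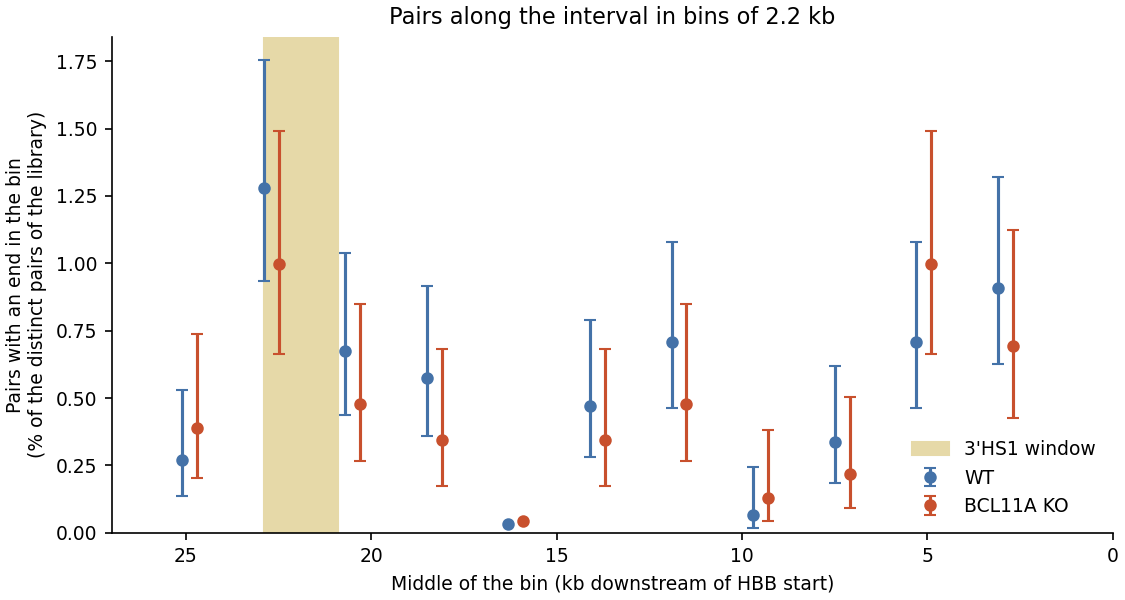
Vertical axis, the percentage of the distinct pairs of the library with an end in each 2.2-kb bin, against the middle of the bin in kb downstream of the HBB transcription start, for WT (blue) and BCL11A KO (red). Bars are 95% Wilson intervals and the band is the 3'HS1 window; the bin with 1 pair in each library was not tested and has no bar, and the intervals of WT and KO overlap in every other bin.

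Each interaction carries a Bayes factor (BF) score, and 150 was the highest value. In WT 158 of the 179 pairs of the interval had this score (88.3%, interval 82.7 to 92.2%) and in KO 83 of 118 (70.3%, 61.6 to 77.8%; Fisher's exact test, adjusted p = 0.00292 over 13 comparisons). All other pairs of the libraries had 89.8% and 89.3%, and those with ends at least 10 kb apart 80.4% and 77.9% (exact test, adjusted p = 0.236). By place, the stretch nearer *HBB* had 60 of 65 at 150 in WT (92.3%) and 32 of 49 in KO (65.3%, exact test, adjusted p = 0.00353), and 3'HS1 had 37 of 41 (90.2%) and 15 of 20 (75%, adjusted p = 0.236). The stretch nearer 3'HS1 had 54 of 62 (87.1%) and 25 of 35 (71.4%, exact test, adjusted p = 0.224). Beyond 3'HS1 the share was higher in KO, with 7 of 11 (63.6%) and 11 of 14 (78.6%, exact test, adjusted p = 0.776). By partner, the LCR had 104 of 108 (96.3%) and 54 of 64 (84.4%, exact test, adjusted p = 0.0369), and the *HBD* upstream region 37 of 51 (72.5%) and 16 of 32 (50%, adjusted p = 0.194). Set against other pairs with ends at least 10 kb apart of the same library, the share at 150 was higher in the interval in WT (Fisher's exact test, p = 0.0105), while in KO it was 70.3% beside 77.9% (exact test, p = 0.0811). The WT direction rests on pairs that left the locus, with 59.9% in WT and 60.6% in KO on the 3'HS1 side and 69% and 67.55% on the HS5 side. Those within the locus had 94.1% and 91.5%, above the interval in both libraries, a difference that was not tested. Without the most used end of the *HBD* upstream region, which had 10 of the 35 KO pairs below 150, the shares of the interval were 88.8% and 76.9% (exact test, p = 0.0113). The shares had been planned as a description, and all tests of them were added after the data had been seen. Pairs of a group have the same score by the way the groups were formed. These tests count that score once per pair, so their p-values are too small.

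Scores below 150 were shared by several pairs. The 21 WT pairs below 150 had 6 different scores and the 35 KO pairs had 10, each held by 2 to 6 pairs in WT and 2 to 14 in KO. In KO, 14 pairs of the *HBD* upstream region had the score 83, and in WT 6 had 44 and 6 had 34. Both KO pairs of HS1 scored 111, both of HS2 scored 87 and both of *HBG* scored 124, whereas all 15 WT pairs of HS1 and HS2 scored 150. Since scores below 150 had a median of 44 in WT and 83 in KO, their values were not compared between the libraries.

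**Figure D5:**
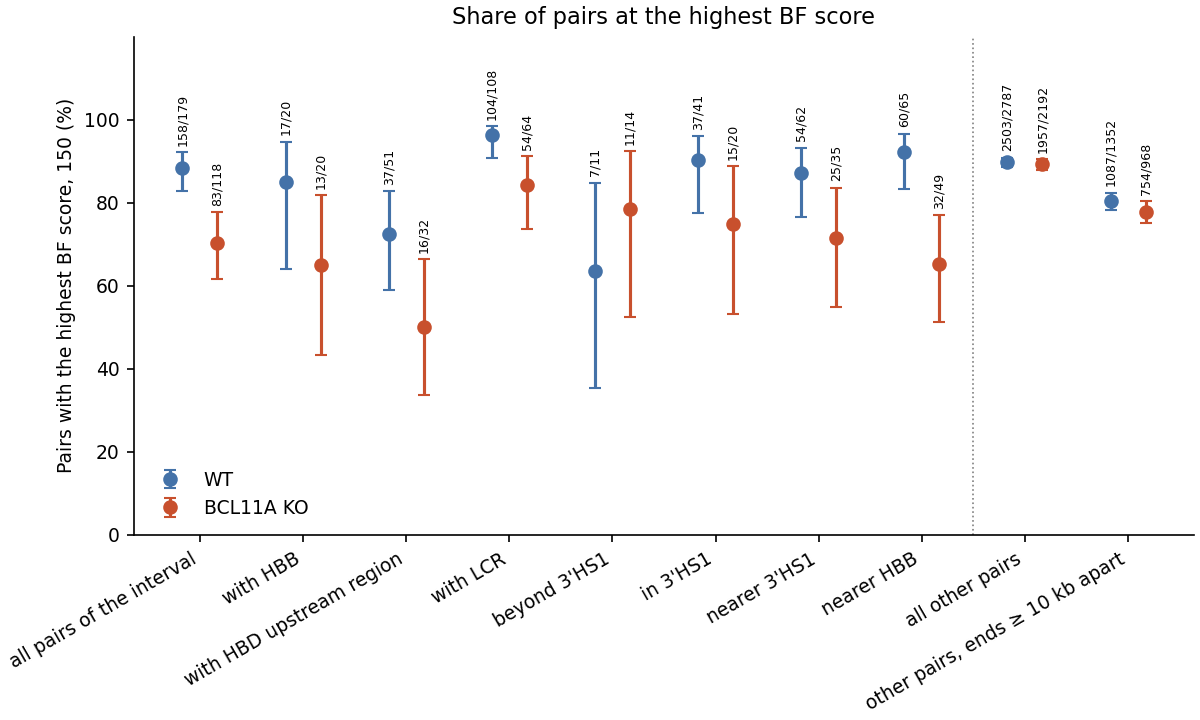
Vertical axis, the percentage of pairs with the highest BF score, 150, in WT (blue) and BCL11A KO (red), for the pairs downstream of HBB by partner and by place and, right of the dotted line, for pairs elsewhere. Points are shares, bars 95% Wilson intervals and labels the counts. The pairs of the interval are at 88.3% and 70.3%, all other pairs at 89.8% and 89.3%, and those with ends at least 10 kb apart at 80.4% and 77.9%. Of the last, the pairs within the locus, at 94.1% and 91.5%, are not drawn separately.

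Few ends were used more than once. In WT 160 of 169 distinct ends in the interval and in KO 101 of 109 belonged to 1 pair, and the end printed as most shared in WT had 3 pairs in WT and 2 in KO. The end printed as most shared in KO, 2.35 kb downstream of the *HBB* start, had 3 pairs in KO and 0 in WT. On the partner side, the *HBD* upstream end printed above took 1 pair of the interval in WT and 10 in KO, although it was in 312 and 363 pairs of all kinds. The 10 KO pairs of this end were spread over the interval, from 3.75 to 23.6 kb. Without it the *HBD* upstream region had 50 of 1474 pairs with the interval in WT and 22 of 650 in KO, 3.39% and 3.38%, and its 3'HS1 share was 9 of 50 (18%) and 10 of 22 (45.5%). The HS3 end printed above took 5 pairs of the interval in each library, of 79 and 101 in all.

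No pair of the interval had the same 2 ends in both libraries, and 9 ends in the interval were used in both. The overlap among the other pairs of the libraries is not given here, so the overlaps in this paragraph are a description and not a trait of the interval. At 1 kb the libraries came closer. Of the pairs of 1-kb bins that were joined, 47 were joined in both libraries, which is 50% of the 94 in WT and 64.4% of the 73 in KO. All 19 of the 1-kb bins with a pair in KO also had one in WT, out of 21. In the annotation, with an end counted once for each of its pairs, 119 WT ends and 91 KO ends lay in no gene. The lncRNA gene ENSG00000224091 held 45 and 20, 16 and 5 of them in its exons, and ENSG00000285498 held 15 and 7. By midpoints, 3 WT and 0 KO ends lay in the co-transcriptional cleavage element downstream of *HBB* (CoTC_ribozyme, chr11:5245678-5245869), which takes part in ending transcription of the gene, but 6 WT ends and 1 KO end overlapped it.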

How the data were processed

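CAPTURE-3C-seq reads were aligned to hg19 by the authors, who kept reads placed at a single position; the submitters' processing notes name Bowtie2 2.2.8 and Picard. The deposited lists, 1 for WT and 1 for BCL11A KO, give the positions of both ends of each interaction (unit other) and a Bayes factor score that the authors computed with MAXIM from 3 merged replicates and kept at 20 or above. No read numbers are given, so depth is the number of distinct pairs, 2966 and 2310. The single replicates were not analysed here.

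Mirrored and repeated lines of the 4 unnamed lists per library were collapsed. The ends are 42 bp long; of 5800 distinct ends, 415 begin or end at GATC, against at most 44 after a shift of up to 4 bp, which fixed the coordinate convention. The restriction enzyme is not given in the sources used here. Regions were placed from GENCODE release 44 on GRCh37, with 2-kb windows at the hypersensitive sites, whose places relative to the genes follow general knowledge and the study's drawings. Shares have 95% Wilson intervals, densities exact Poisson intervals; WT was set against KO with Fisher's exact test (two-sided), p-values were adjusted after Benjamini and Hochberg, differences of changes were tested with Zelen's exact test, and 2.2-kb bins needed 5 pairs. A count of 3 was the floor. Python 3.11.15 with scipy 1.17.1, numpy 2.4.6 and matplotlib 3.10.9 was used. The scripts were tested on simulated lists that drew WT pairs independently, which does not cover the grouping of the pairs.

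Named sites are the partner regions, HS1 to HS5, 3'HS1, the bins that were called or held the most pairs, and the most used ends; several ends tied at 2 pairs and are not named. No end of 3'HS1 was used more than once, so its sequence was taken around the GATC site nearest to the most ends. Other sites and near-empty bins were chosen after their values were seen. The members and lists were chosen with earlier results of these data known. Alternatives changed the denominator, unit, score, window, bin size and placement.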

Additional observations from a re-analysis of the deposited data

Results flagged for a closer look

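In 4 results the change from WT to BCL11A KO differed between partner regions by Zelen's exact test of equal odds ratios, out of 6 such tests. The share of the LCR's pairs that lay downstream of *HBB* fell by 3.81 percentage points, beside differences of 5.90 points for *HBB* (Zelen's exact p = 0.00493) and of 0.303 points for the *HBD* upstream region (exact p = 0.0182), neither of which passed a test of its own. The 3'HS1 share of the pairs downstream of *HBB* was 14.1 points lower in KO for the LCR and 16.7 points higher for the *HBD* upstream region (exact p = 0.00826), and 25 points lower for *HBB* beside the same 16.7 points (exact p = 0.00668). Across the alternatives run, the p of LCR against *HBB* was 0.00275 to 0.816 and that of LCR against the *HBD* upstream region 9.48e-07 to 0.363 for the share of pairs downstream of *HBB*. For the 3'HS1 share, LCR against the *HBD* upstream region ranged from 0.00142 to 0.431 and *HBB* against the *HBD* upstream region from 0.00235 to 0.208, the highest of both with that region held to 3.5 kb of the *HBD* start, where its own 3'HS1 share differed by -5.22 points. Pairs of a group are not independent, and these p-values count them as if they were.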

How the results depend on the processing

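Values here are KO minus WT in percentage points, and these alternatives were chosen after the data had been seen: pairs that leave the region, the list of each bait, GATC sites, without the most used end of the *HBD* upstream region, that region held to 3.5 kb, scores of 150 for the 3'HS1 shares and the bins, and all tests of the share at 150. The lower LCR share kept its direction under every alternative run and its call under all but distinct pairs of 1-kb bins, where it was -2.62. For the *HBD* upstream region the denominator decided the call: the difference was 6.14 for ends at least 1 kb apart, 8.99 for at least 10 kb and 6.58 for pairs leaving the region, all past the threshold, but -0.614 with scores of 150 alone and -0.00752 without its most used end. *HBB* turned to -2.50 with 1-kb bins. The share of HS1, close to 0, became -3.91 with scores of 150, -0.0958 with the nearest site, -0.0432 without that end and -0.0547 by GATC sites. All pairs of the interval gave 0.0883 with 1-kb bins and -1.87, past the threshold, with scores of 150. The stretch nearer 3'HS1 turned to 4.31 with 1-kb bins. The 3'HS1 share of the *HBD* upstream region passed at 36.5 with scores of 150, and without its most used end it passed at 27.4. In that last setting *HBB* at -25 and the LCR at -14.1 passed too. Their counts were unchanged, and they passed only because the adjustment runs over the regions together. With the *HBD* upstream region held to 3.5 kb its 3'HS1 share turned to -5.22. Against other pairs with scores of 150, the interval turned to -5.38 beside the 3'HS1 side and -2.75 within the locus, and passed at -12.1 beside the HS5 side. Bins of the interval past a share ratio of 2 numbered 2 with 1.1-kb bins, 1 with ends at least 10 kb apart and 3 with scores of 150, and 0 were called in any setting. The share of pairs of the interval at the score of 150 differed by -17.9 and, without the most used end of the *HBD* upstream region, by -11.9. Of 148 tested differences recomputed under alternatives, 123 kept their direction and side of the threshold; with scores of 150 alone, *HBG* and HS5 had no pair of the interval left and were not tested. The cause of these changes was not tested.

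No paired analysis was possible because each genotype has 1 merged list. The lists hold no read numbers, so depth is limited to 179 and 118 pairs in 25 and 26 groups.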
